A study of Mus musculus with 4 samples.

Results

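The genes described here are 10 regulators of the BCL2 family, which set whether a cell starts mitochondrial apoptosis: the pro-survival genes Bcl2, Bcl2l1 and Mcl1, the BH3-only genes Bcl2l11, Bmf, Bbc3, Pmaip1 and Bid, and the effectors Bax and Bak1. They were matched by symbol, and each had 1 row among the 22186 genes of the expression table. The cells were MC38, a mouse colon cancer line, stably carrying the TetOn-CXCL14 construct, from which doxycycline, an antibiotic, induces the secreted chemokine CXCL14. The 4 libraries were 2 from control cultures given the solvent PBS and 2 from cultures given doxycycline at 1 µg/mL, all harvested at 72 h. Samples of 1 group are biological replicates by the series text. All libraries carried the construct and none came from cells given doxycycline without it, so an effect of the drug and an effect of the chemokine cannot be told apart. The sources used here do not say whether the transfected line was 1 clone.

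In mitochondrial apoptosis, BAX and BAK1 open the outer mitochondrial membrane and let cytochrome c out into the cytosol, where it starts a cascade of caspases. Pro-survival members hold BAX, BAK1 and the BH3-only proteins in check, and BH3-only proteins carry stress signals to the family by occupying the pro-survival proteins or by acting on the effectors. Much of this control lies in protein binding, location and turnover, so transcript levels cover only part of it.

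Levels are given in TPM, a share of all transcripts scaled for transcript length, so genes can be compared with each other. A change is the difference of group means of log2(TPM + 1), tested with limma across the 11359 genes whose mean reached 1 TPM, and called at a Benjamini-Hochberg adjusted p under 0.05. With 2 against 2 libraries an exact permutation test cannot go below p = 0.33 (two-sided), so each call leans on limma's pooling of spread over genes. Depth is unknown, since the tables hold no read counts. In cultures measured in bulk, fewer cells of a type and less RNA per cell cannot be told apart. Cxcl14 checked the labels: it stood at 27.3 and 29.2 TPM in control cultures and at 385 and 391 TPM in treated cultures. Library pairs of 1 group differed by an SD of 0.16 to 0.18 in log2(TPM + 1) over genes, and pairs across groups by 0.69 to 0.74. All 12 markers listed for colon epithelium had a mean below 1 TPM, and Cdh1, Cdx1, Cdx2 and Krt19 were listed at 0 in every library. Of the markers of other cell types, T cell genes summed to 0.182 to 0.536 TPM, with Cd3d, Cd3e, Cd3g and Cd8a at 0, and macrophage genes to 7.48 to 12.1 TPM, with Laptm5, C1qa and C1qc at 0. Fibroblast genes summed to 4053 and 4205 TPM in control cultures and 909 and 823 TPM in treated cultures. Most of that sum was Dcn, at 3075 and 3259 TPM in control cultures and 485 and 464 TPM in treated cultures. Of the 9 fibroblast genes, Dcn, Pdgfra, Pdgfrb and Col3a1 fell, Col1a1 did not pass (log2 change 0.15, limma adjusted p = 0.52), and 4 had a mean below 1 TPM (Col1a2, Lum, Fap and Thy1, the last at 0). The part of this difference in the results below was not tested.

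Upstream sequences are shown for the 3 members that fell most and for the member that rose most, since these 4 carry the main changes. They are the 250 bases before a transcription start, 5′ to 3′, from RefSeq on GRCm38.p6; the expression files name mm39 and hold no coordinates. That table held 16 windows for 9 of the 10 members. Pmaip1 is named only. Capitals mark every match, on both strands, to the motifs TGTTTAC (FOXO), TGATGNAAN (CARE, for ATF4), TGACGTCA (CRE), TGANTCA (AP-1), CACGTG (E-box), GGGCGG (GC box), TTCNNNGAA (STAT), CCAAT and TTTCGCGC (E2F); neighbouring GC boxes can overlap. The Bcl2l11 window lies at chr2:128125788-128126037 on the plus strand, Bmf at chr2:118549687-118549936 and Bcl2l1 at chr2:152831729-152831978, both on the minus strand, and Bbc3 at chr7:16310011-16310260 on the plus strand. The Bcl2l11, Bmf and Bcl2l1 windows precede the most upstream start listed for their gene, and the Bbc3 window precedes an internal start, in an intron of GENCODE M21. Bbc3 had 3 windows, and this one was chosen after the search because it held a FOXO match; the window before its most upstream start held only GC boxes among these motifs.
Bcl2l11: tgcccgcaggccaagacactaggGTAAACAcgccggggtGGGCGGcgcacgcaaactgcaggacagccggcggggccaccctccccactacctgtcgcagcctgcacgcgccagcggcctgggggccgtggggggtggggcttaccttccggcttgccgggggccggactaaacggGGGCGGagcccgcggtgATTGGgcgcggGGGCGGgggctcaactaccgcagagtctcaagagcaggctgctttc
Bmf: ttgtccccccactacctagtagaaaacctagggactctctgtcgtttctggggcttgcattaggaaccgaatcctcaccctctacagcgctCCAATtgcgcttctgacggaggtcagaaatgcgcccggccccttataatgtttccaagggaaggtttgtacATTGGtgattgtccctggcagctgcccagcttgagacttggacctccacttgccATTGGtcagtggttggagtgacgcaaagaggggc
Bcl2l1: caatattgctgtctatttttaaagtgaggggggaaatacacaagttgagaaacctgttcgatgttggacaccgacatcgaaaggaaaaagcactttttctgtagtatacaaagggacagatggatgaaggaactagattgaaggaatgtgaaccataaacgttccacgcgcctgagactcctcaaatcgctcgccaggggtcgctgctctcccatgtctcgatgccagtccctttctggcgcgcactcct
Bbc3: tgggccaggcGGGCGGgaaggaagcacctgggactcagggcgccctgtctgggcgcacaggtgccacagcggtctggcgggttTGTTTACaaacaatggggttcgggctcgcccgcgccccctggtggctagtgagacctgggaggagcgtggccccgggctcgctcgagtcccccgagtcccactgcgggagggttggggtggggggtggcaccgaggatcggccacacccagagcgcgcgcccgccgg

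A FOXO match was present in 2 of the 16 windows, these of Bcl2l11 (GTAAACA, 227 bases before the start) and Bbc3 (TGTTTAC, 167 bases before the start), beside 3.17% of the 32851 windows in the table. The Bmf window held 3 CCAAT matches, a motif found in 33.8% of all windows. The printed Bcl2l1 window held no match to any marked motif. Another Bcl2l1 window, before an internal start and not printed, held an E2F match 145 bases before that start. E2F matched 0.256% of all windows. E-box matches lay in the Bax window and in a Bbc3 window that is not printed, beside 6.02% of all windows. CARE, CRE, AP-1 and STAT had no match in any of the 16 windows, beside 3.44%, 1.55%, 6.75% and 7.02% of all windows. GC content was 72.0% for Bcl2l11 and 72.4% for Bbc3, against 54.0% for Bmf and 47.6% for Bcl2l1, with a median of 52.4% over all windows. The motifs were chosen with the members' changes known. A looser pattern for NF-kappaB (GGG, any 5 bases, then CC) was also searched on both strands, and was dropped from the marked motifs after its matches were seen. It matched 12 of the 16 windows, beside 45.8% of all windows, among them the printed windows of Bcl2l11 (4 matches) and Bbc3 (3 matches) and not those of Bmf and Bcl2l1. Windows of the same gene are not independent, and some Bbc3 windows overlap, so these counts do not measure an excess over all windows. A match describes letters in the window only. The 3 members that fell most all lie on chromosome 2 of that build, and whether other genes of that chromosome changed alike was not tested.

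The members moved in both directions. Of 9 members tested, 8 passed the threshold, 3 as higher and 5 as lower, and Pmaip1 lay below the level for testing. Over all genes tested 64.4% passed, 29.0% as higher and 35.4% as lower, so the count of members passing is to be read against a background in which most genes changed. The share of members that rose was near that background. The members that fell by at least 1 on the log2 scale were 3 of 9, Bmf, Bcl2l11 and Bcl2l1, beside 7.76% of all genes tested. The groups did not overlap for 8 of the 9, beside 82.7% of all genes. The median change was -0.39 over the 9 members and -0.04 over all genes tested. The members were chosen with earlier results of these data known, so these comparisons are descriptions and no test of the family.

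**Figure D1:**
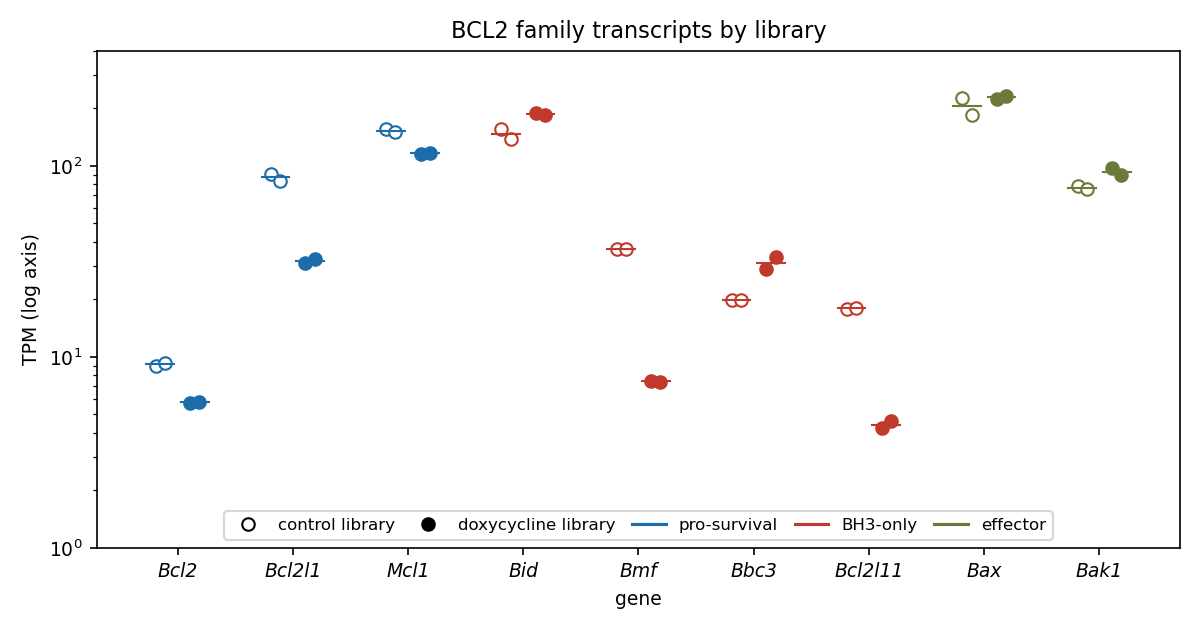
Level of 9 members in each of the 4 libraries, in TPM on a log axis; open circles are control libraries, filled circles doxycycline libraries, short lines group means, and colours the member class. Bmf fell from 36.6 to 7.46 TPM and Bcl2l11 from 18.0 to 4.42 TPM, while only Bax has overlapping groups; Pmaip1, listed at 0 in 2 libraries, is not drawn.

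All 3 pro-survival members fell, by unequal amounts. Bcl2l1, which encodes BCL-XL, a guard of the outer mitochondrial membrane, stood at 90.5 and 83.4 TPM in control cultures and at 31.2 and 32.3 TPM in treated cultures. Both treated libraries lay far below both controls. The means were 87.0 ± 5.00 and 31.7 ± 0.829 TPM (SD, n = 2), 2.74-fold lower, a log2 change of -1.42 (SE 0.07, limma adjusted p = 3.2e-07). Of all genes tested, 3.64% had a lower log2 change.

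Mcl1, which encodes a short-lived pro-survival protein, stood at 156 and 150 TPM in control cultures and at 115 and 117 TPM in treated cultures. The groups did not overlap, and the fall was smaller than that of Bcl2l1, 1.32-fold, with a log2 change of -0.39 (SE 0.06, limma adjusted p = 3.1e-04). Bcl2, the founding member of the family, was the lowest of the 3 in both groups, at 8.91 and 9.34 TPM in control cultures and 5.75 and 5.83 TPM in treated cultures. Its fall was 1.58-fold, with a log2 change of -0.58 (SE 0.11, limma adjusted p = 0.0011), which became -0.30 under quantile normalization (adjusted p = 0.033). A GENCODE M21 antisense transcript, D630008O14Rik, shares 498 bases with Bcl2 on the opposite strand, and no label says whether the counting used strand, so reads from it may be in the Bcl2 value.

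The make-up of the pro-survival pool shifted. Mcl1 made up 61.1% and 61.7% of the summed TPM of the 3 genes in control cultures and 75.7% and 75.4% in treated cultures. Bcl2l1 took 35.4% and 34.4% in control cultures and 20.5% and 20.9% in treated cultures. The TPM ratio of Mcl1 to Bcl2l1 was 1.73 and 1.79 in control cultures and 3.70 and 3.61 in treated cultures. Bcl2 kept a small share, between 3.48% and 3.85% in all 4 libraries.

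The BH3-only members went in both directions. Bmf, whose protein is known to be released from the cytoskeleton in cells that lose attachment, stood at 36.8 and 36.5 TPM in control cultures and at 7.50 and 7.42 TPM in treated cultures. The SD was 0.191 TPM in control cultures and 0.0535 TPM in treated cultures, far smaller than the gap between the groups. The fall was 4.91-fold, the largest among the 9 tested members, with a log2 change of -2.15 (SE 0.08, limma adjusted p = 9.0e-08), and 1.24% of all genes tested had a lower value. Bcl2l11, which encodes BIM, a BH3-only protein that binds every main pro-survival member and can act on BAX directly, also fell. It stood at 17.9 and 18.1 TPM in control cultures and at 4.23 and 4.61 TPM in treated cultures, with no overlap. That is 4.07-fold lower, a log2 change of -1.81 (SE 0.10, limma adjusted p = 6.5e-07), with 1.97% of genes tested lower still. The table gives 1 value per gene, so splice forms of Bcl2l11 and Bcl2l1 were not resolved.

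Bbc3, which encodes PUMA, a target of p53 and of stress pathways, rose. It was listed at 19.8 TPM in both controls and at 28.8 and 33.4 TPM in treated cultures. Both treated libraries were higher, and they differed from each other more than the controls did. The rise was 1.57-fold, a log2 change of 0.62 (SE 0.09, limma adjusted p = 2.4e-04), and 9.41% of genes tested had a higher value. Bid, which links caspase-8 to the mitochondrion once it is cleaved, stood at 156 and 137 TPM in control cultures and at 189 and 184 TPM in treated cultures. Its rise was small, 1.27-fold, with a log2 change of 0.35 (SE 0.07, limma adjusted p = 0.0022). Pmaip1, which encodes NOXA, a BH3-only partner of MCL1, was listed at 0.0622 and 0 TPM in control cultures and 0.0476 and 0 TPM in treated cultures, too low for a test.

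The summed level of the BH3-only members overlapped between the groups while its make-up differed. The sum was 230 and 212 TPM in control cultures and 230 and 229 TPM in treated cultures. Bid alone made up 67.7% and 64.8% of it in control cultures and 82.3% and 80.2% in treated cultures. Bmf went from 16.0% and 17.2% to 3.26% and 3.23%, Bcl2l11 from 7.75% and 8.55% to 1.84% and 2.01%, and Bbc3 from 8.58% and 9.36% to 12.5% and 14.6%. In control cultures Bbc3 and Bcl2l11 lay close together, with a TPM ratio of 1.11 and 1.09, and in treated cultures that ratio was 6.81 and 7.25. Bbc3 over Bmf went from 0.537 and 0.543 to 3.85 and 4.50. These sums and ratios are descriptions with no test.

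Of the effectors, Bak1 rose slightly and Bax did not pass. Bak1, whose protein sits in the outer mitochondrial membrane, stood at 78.1 and 75.6 TPM in control cultures and at 97.3 and 89.2 TPM in treated cultures. The rise was 1.21-fold, a log2 change of 0.27 (SE 0.07, limma adjusted p = 0.0056). The call rested on DOX replicate 1: without that library the log2 change was 0.21 (adjusted p = 0.065). Bak1 shares 263 bases with Ggnbp1 on the opposite strand, and Ggnbp1 was listed at 1.03 to 2.62 TPM, far below Bak1. Bax, whose protein moves from the cytosol to mitochondria, had the highest level of the 10 in both groups, at 225 and 185 TPM in control cultures and 225 and 231 TPM in treated cultures. Control replicate 1 lay among the treated libraries and control replicate 2 below them. The log2 change was 0.16 (95% confidence interval -0.04 to 0.35, limma adjusted p = 0.15). The value depended on the control library used: it was 0.30 without control replicate 1 (adjusted p = 0.0064) and 0.015 without control replicate 2 (adjusted p = 0.84). Median-of-ratios scaling also brought Bax past the threshold (0.22, adjusted p = 0.043). A GENCODE M21 transcript, Gm45808, shares 194 bases with Bax on the same strand. It was not among the genes listed, and reads from it may be in the Bax value.

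**Figure D2:**
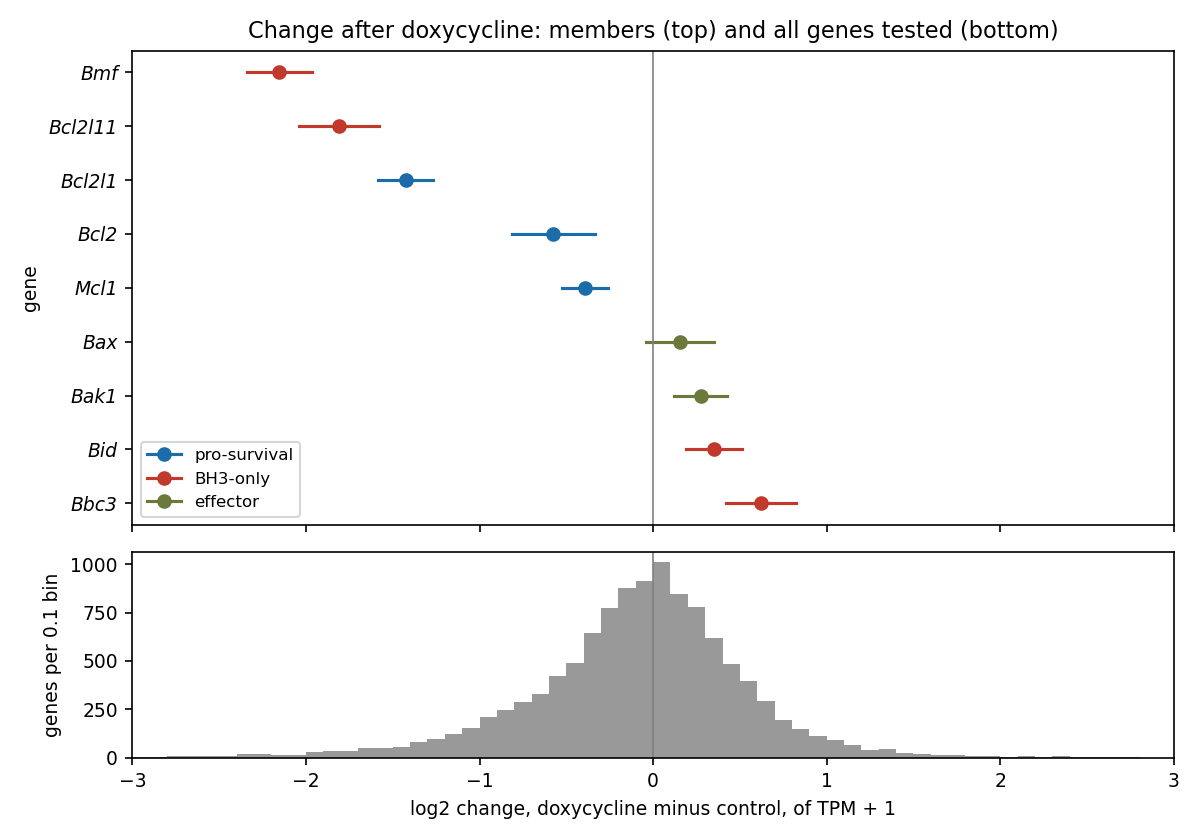
Top, log2 change of TPM + 1 (doxycycline minus control) of the 9 tested members, points with 95% confidence intervals from limma, coloured by class; bottom, a histogram of the change of all 11359 genes tested, of which 56 beyond 3 in size are not drawn. Bmf, Bcl2l11 and Bcl2l1 sit in the left tail at -2.15, -1.81 and -1.42, and the interval of Bax, -0.04 to 0.35, crosses 0.

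Set against the other classes, the pro-survival sum was the one that fell. It was 256 and 242 TPM in control cultures and 152 and 155 TPM in treated cultures, 1.62-fold lower. The effector sum was 304 and 261 TPM in control cultures and 322 and 320 TPM in treated cultures. As a share of the TPM of all 10 members, pro-survival transcripts went from 32.4% and 33.9% to 21.6% and 22.0%, and effectors from 38.4% and 36.5% to 45.7% and 45.4%. The ratio of Bax plus Bak1 to the pro-survival sum was 1.19 and 1.08 in control cultures and 2.12 and 2.06 in treated cultures. For Bax over Bcl2, a ratio often quoted for this family, the values were 25.3 and 19.9 in control cultures and 39.1 and 39.6 in treated cultures. For Bax over Bcl2l1 they were 2.49 and 2.22, and 7.22 and 7.13. Transcript ratios do not give the ratios of the proteins.

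**Figure D3:**
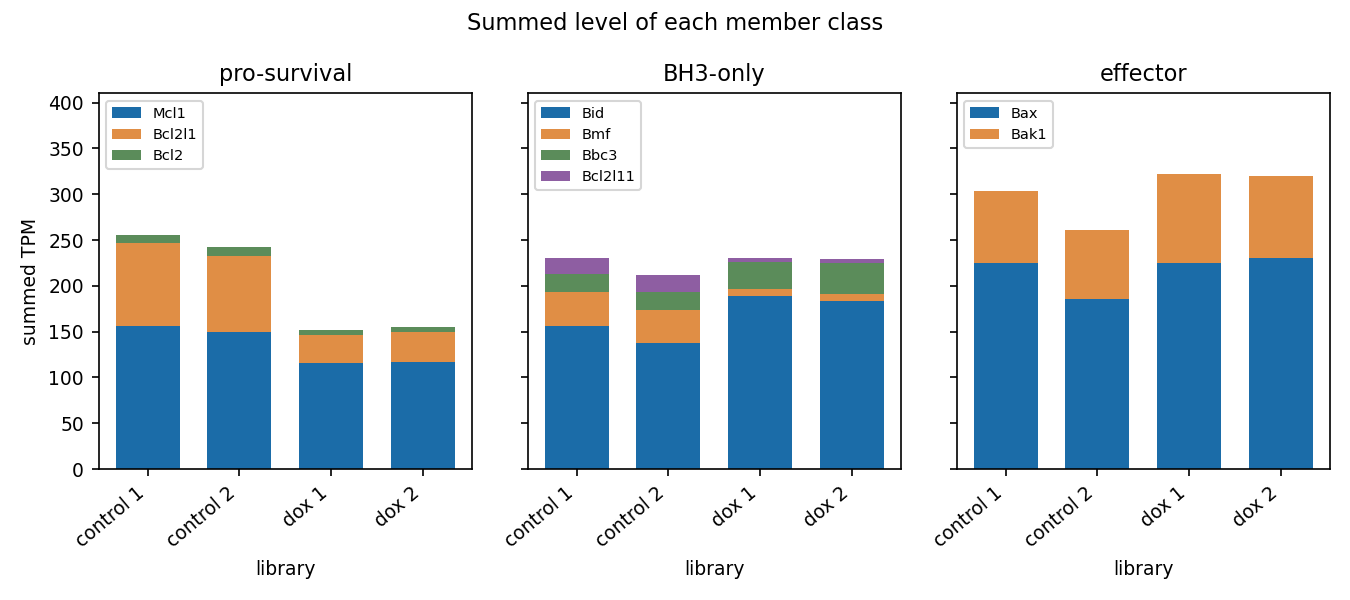
Stacked bars of TPM by library for the pro-survival, BH3-only and effector members, each bar 1 library and each colour 1 gene. The pro-survival bars go from 256 and 242 TPM to 152 and 155 TPM, while the BH3-only bars stay between 212 and 230 TPM with Bid taking a larger part.

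The order of levels changed in part. In control cultures it ran Bax, Mcl1, Bid, Bcl2l1, Bak1, Bmf, Bbc3, Bcl2l11, Bcl2 and Pmaip1, and the ranges of Mcl1 and Bid overlapped. After doxycycline it ran Bax, Bid, Mcl1, Bak1, Bcl2l1, Bbc3, Bmf, Bcl2, Bcl2l11 and Pmaip1, and the ranges of Bcl2l1 and Bbc3 overlapped. Bcl2l11 went from above Bcl2 to below it: the means were 18.0 ± 0.169 and 9.12 ± 0.302 TPM in control cultures, and 4.42 ± 0.265 and 5.79 ± 0.0540 TPM in treated cultures (SD, n = 2).

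**Figure D4:**
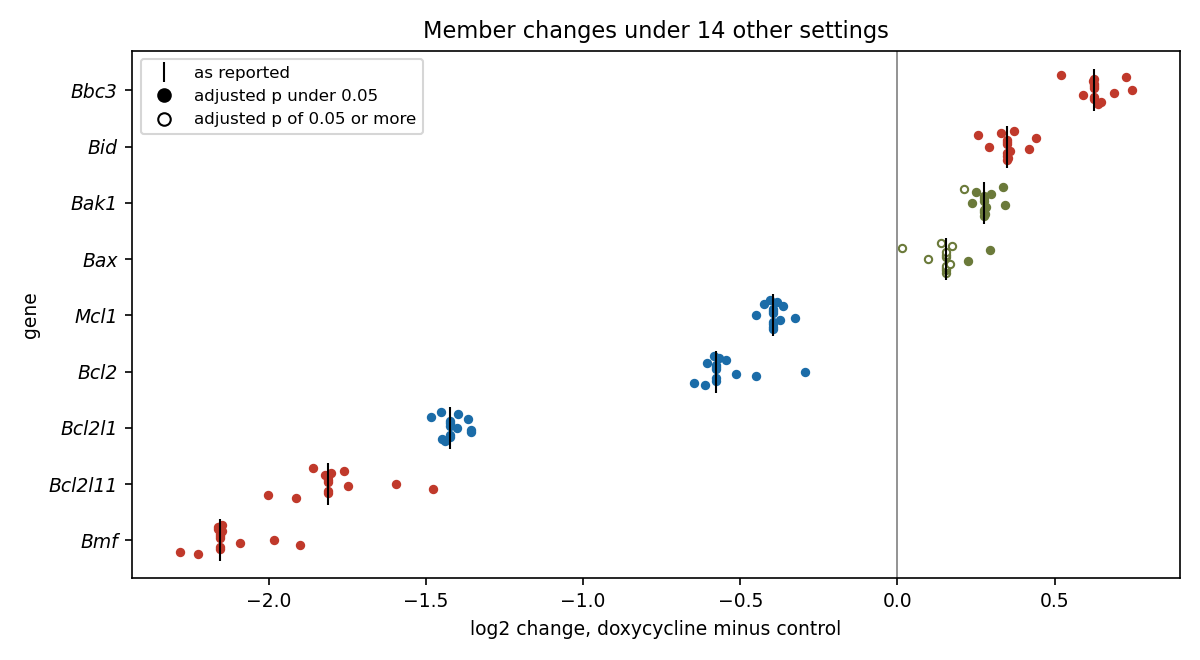
Log2 change (doxycycline minus control) of each tested member as reported (black tick) and under 14 other settings of the analysis (circles, filled where the adjusted p was under 0.05). The circles of 7 members are all filled and keep their side of 0, while Bak1 has 1 open circle and Bax 2 filled ones.

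The relatives outside the 10 gave a mixed picture. Bcl2l2, which encodes the pro-survival protein BCL-W, rose, from 39.3 and 39.9 TPM to 55.3 and 52.7 TPM (log2 change 0.44, limma adjusted p = 3.8e-04), against the fall of the 3 pro-survival members. After doxycycline it stood above Bcl2l1, whose TPM ratio to Bcl2l2 went from 2.30 and 2.09 to 0.564 and 0.614. With Bcl2l2 added, the pro-survival sum was 295 and 282 TPM in control cultures and 207 and 208 TPM in treated cultures. The other 4 genes of that list, Bcl2a1a, Bcl2a1b, Bcl2a1d and Bcl2l10, were listed at 0 in all libraries. Among 12 further effector, BH3-only or related genes, 7 were tested, of which 1 rose and 3 fell, beside 29.0% and 35.4% of all genes. The count that rose was 2 in FPKM and under median-of-ratios scaling, and 3 under quantile normalization. Bnip3 and Bnip3l, mitophagy receptors with a BH3-like stretch, fell from 210 and 216 TPM to 37.2 and 38.5 TPM and from 118 and 131 TPM to 66.1 and 64.3 TPM. Bcl2l12 fell (log2 change -0.63), and Becn1, an autophagy protein that binds BCL2, rose (0.33). Bad, a BH3-only protein held by 14-3-3 proteins when phosphorylated, had a log2 change of 0.04 (limma adjusted p = 0.60), and Bok, a BAX-like protein, 0.15 (adjusted p = 0.19). The BH3-only genes Bik and Hrk were listed at 0 throughout.

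Downstream of the mitochondrion, Cycs and the caspase genes parted. Of 14 apoptosome and caspase genes, 4 rose and 7 fell (median -0.18), beside 29.0% and 35.4% of all genes tested. Cycs, which encodes cytochrome c, rose from 118 and 107 TPM to 163 and 172 TPM (log2 change 0.57, limma adjusted p = 7.5e-05), and Htra2, a mitochondrial protease that is released with it, from 57.5 and 49.7 TPM to 97.9 and 96.6 TPM. Casp6 fell from 33.2 and 33.0 TPM to 7.84 and 10.4 TPM. Apaf1 and Casp9, the scaffold and the initiator caspase of the apoptosome, fell by less (log2 change -0.35 and -0.56). Without control replicate 2, and with no filter on low values, 2 genes of the list rose; under quantile normalization 4 fell.

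In the list of inhibitors of apoptosis proteins and related genes, not all of which block caspases, 3 of 7 tested rose and 4 fell (median -0.32). Birc2 fell from 118 and 114 TPM to 63.3 and 56.7 TPM (log2 change -0.94), Birc3 and Birc5 fell (-0.66 and -0.64), and Naip2 rose (0.61). Xiap, the direct caspase inhibitor, stood at 25.1 and 28.2 TPM in control cultures and at 20.5 and 21.6 TPM in treated cultures (log2 change -0.32, limma adjusted p = 0.0095), a call lost under quantile normalization (adjusted p = 0.085) and without control replicate 2 (0.065). Of 11 tested genes of the death receptor pathway, 3 rose and 5 fell (median -0.03). Both lists stand beside 29.0% higher and 35.4% lower over all genes tested. Fas, a death receptor, fell from 37.8 and 35.7 TPM to 5.34 and 3.80 TPM (log2 change -2.77, limma adjusted p = 2.6e-07), and Tnfsf10, which encodes the death ligand TRAIL, from 7.98 and 8.07 TPM to 1.37 and 0.677 TPM. Tnfrsf1a and Cflar, the latter an inhibitor of caspase-8, fell (log2 change -0.63 and -0.56).

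Of 12 genes for pores and partners in the outer membrane, including fission and fusion factors, 5 rose and 0 fell by limma (median 0.11). Over all genes tested 29.0% rose and 35.4% fell. The count that rose was 7 under median-of-ratios scaling, and it was lower with some libraries left out. At an unadjusted limma p under 0.05 1 of the 12 genes, Mtch1, was lower, and 1 was called lower under quantile normalization and with the replicate block. The number called lower also changed with the control library that was left out. Dnm1l, the fission GTPase, rose from 109 and 112 TPM to 165 and 167 TPM, the channel gene Vdac3 from 275 and 264 TPM to 393 and 406 TPM, and Mfn2 and Mief1 rose (log2 change 0.30 and 0.26, the latter with adjusted p = 0.062 without control replicate 2).

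Of 16 tested regulators of BH3-only transcription, 7 rose and 9 fell (median -0.25), beside the 64.4% of all genes that passed. The number that fell was 8 under median-of-ratios scaling, under quantile normalization and with eBayes without a trend. It was 10 with no filter on low values, where genes below 1 TPM were tested too. It was also lower with some libraries left out. Foxo3, a factor known to act on Bcl2l11 and Bbc3, fell from 158 and 161 TPM to 61.9 and 58.9 TPM (log2 change -1.38, limma adjusted p = 1.8e-07). Trp53, which encodes p53, rose from 127 and 114 TPM to 206 and 200 TPM (log2 change 0.75, limma adjusted p = 1.4e-05). Ddit3, which encodes CHOP, a factor of the integrated stress response, rose from 255 and 231 TPM to 595 and 670 TPM. The stress factor Atf3 and Trib3, a pseudokinase induced by ATF4 and CHOP rather than a transcription factor, rose (log2 change 2.72 and 2.17), as did Myc (1.74). In the list on turnover and binding of MCL1 and BH3-only proteins, 6 of 21 rose and 6 fell (median 0.09). Over all genes tested 29.0% rose and 35.4% fell. Under median-of-ratios scaling 10 genes of that list rose. Huwe1, a ubiquitin ligase of MCL1, rose from 63.7 and 67.2 TPM to 100 and 104 TPM. Mapk3, which encodes ERK1, a kinase that marks BIM for destruction, fell from 307 and 300 TPM to 153 and 150 TPM, and the kinases Pim1 and Pim2 fell (log2 change -1.53 and -0.70).

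**Figure D5:**
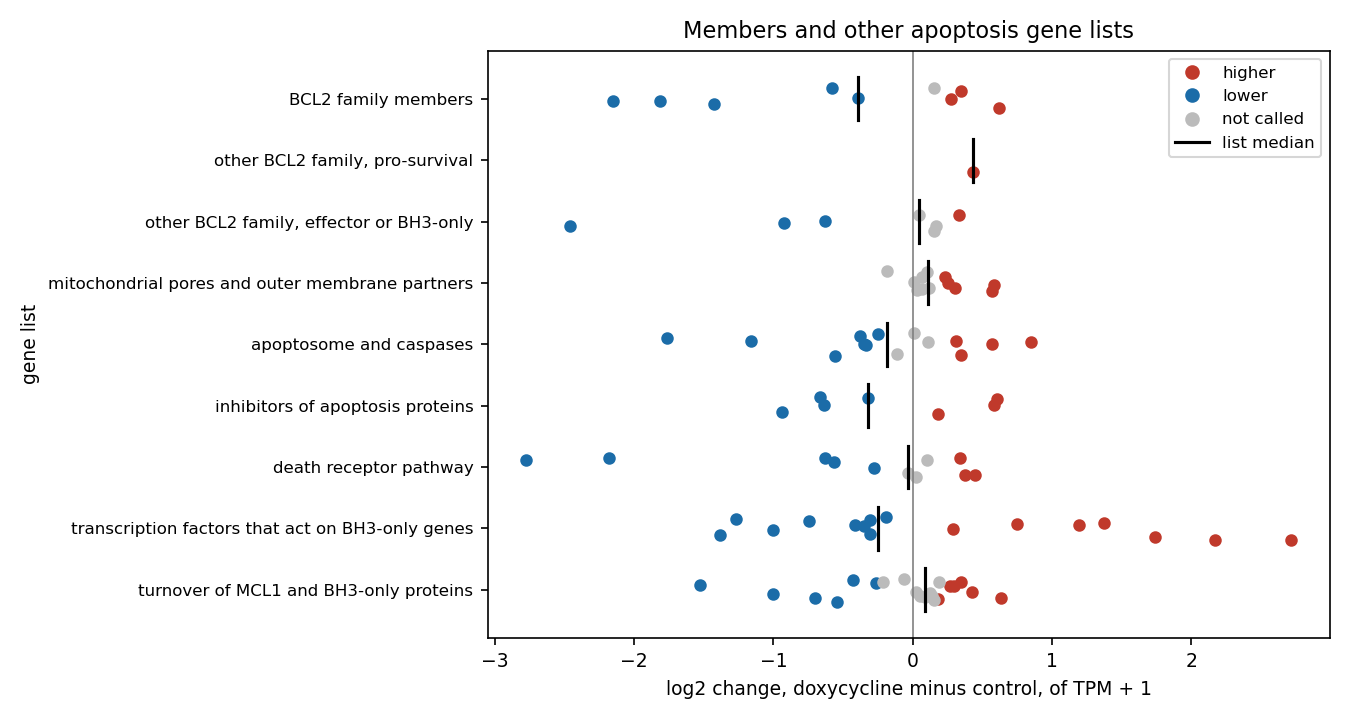
Log2 change of TPM + 1 (doxycycline minus control) of the 9 tested members and of the tested genes of 8 other lists, 1 point per gene, red for genes called higher, blue for lower, grey for not called, with a black line at each list's median. The members' median lies at -0.39, and the lists' medians between -0.32 and 0.44.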

How the data were processed

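RNA sequencing of 4 MC38 libraries was used, in 2 groups taken from the sample titles. The authors deposited gene tables in TPM and in FPKM; the build, per the submitters' processing notes, was mm39. The sources used here do not give the aligner, quantifier, annotation or use of strand. TPM in a library was a constant multiple of FPKM (3.08 to 3.14). TPM is a share, so a change in abundant transcripts shifts all others. Members were matched by symbol. Genes whose mean reached 1 TPM were tested on log2(TPM + 1) with limma 3.58.1 (lmFit, eBayes with a mean-variance trend) in R 4.3.3, 2 against 2 libraries with no covariate and with Benjamini-Hochberg adjustment over all 11359 genes. This scale understates the change of low genes. The fit had 2 residual and 6.98 prior degrees of freedom. Transcripts shared with other genes were sought with blastn 2.17.0 in GENCODE M21 at 97% identity over at least 100 bases.

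The members and the gene lists were chosen with earlier results of these data known. Text names all members, Cxcl14, a set of core apoptosis genes and up to 4 called genes per list with the largest change; a gene that this rule names is not reported here. Other pseudocounts (0.5 and 0.1), filters, FPKM, scalings, variance models, a replicate block and each library left out were tried. With 1 library left in a group, its spread is taken from the other group.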

Additional observations from a re-analysis of the deposited data

How the results depend on the processing

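Over 14 other settings the members lower stayed at 5, and the members higher were 3 in all but 3 settings: 4 under median-of-ratios scaling and without control replicate 1, and 2 without DOX replicate 1. Bcl2, Bcl2l1, Mcl1, Bcl2l11, Bmf, Bbc3 and Bid were called in all 14. Bax was called under median-of-ratios scaling (log2 change 0.22), and its change ran from 0.015 to 0.30 with each library left out; Bak1 ran from 0.21 to 0.34 and lost its call without DOX replicate 1. The log2 change of Bad, not called, ran from -0.020 to 0.11 and turned negative without control replicate 2. Bok was called under quantile normalization only (0.30, adjusted p = 0.023). The median of all genes moved from -0.04 to 0.05 under quantile normalization, where 3870 genes were higher and 3356 lower, against 3295 and 4017 as reported. With the replicate number as a block 3 members were higher and 5 lower, and over all genes 3387 were higher and 4114 lower; nothing in the labels says that the numbers mark a shared day or stock, and deviations of same-numbered libraries had a correlation of -0.0053. The unknown depth limits genes near 0 TPM such as Pmaip1.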
